A study of Mus musculus with 22 samples.

Results

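The 40 genes described here act in mitosis: cyclins and mitotic kinases, centromere and kinetochore proteins, spindle and cytokinesis proteins and proteins of mitotic chromosomes. They were taken by gene symbol from a table of raw read counts, in which all 40 were found among 23453 symbols, and genes with a kinesin family symbol were not part of the set, which does hold *Cenpe*, itself a kinesin motor. The table holds 22 single astrocytes cultured from the cortex of C57BL/6 mouse pups of postnatal day 0 to 1, each picked with a micropipette after its calcium signal during an acute EtOH exposure had been classified, and then amplified and sequenced on its own. There were 6 S-type cells (slow rise and slow decay), 6 T-type cells (sharp transient), 5 M-type cells (mixed signals) and 5 cells without a response (NR), and the NR cells had also been exposed to EtOH. The cultures had been depleted of cells other than astrocytes by shaking and by cytosine arabinoside, an inhibitor of DNA synthesis (10 µM, 12 h), and were without serum for the last 24 h before imaging. The culture medium otherwise held serum, and these are cultured cells, not astrocytes in the brain.

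A cell enters mitosis when CDK1, bound to cyclin B, is switched on. Chromosomes then condense, kinetochores attach them to spindle microtubules, and the spindle checkpoint holds back the anaphase-promoting complex (APC/C) until attachment is complete, after which securin and cyclin B are destroyed and cytokinesis divides the cell. Transcripts of most of these genes build up in G2 and mitosis and are kept low in resting cells by the DREAM and RB complexes, so in astrocytes they are used as a sign of proliferation.

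Libraries held 2937786 to 22131076 reads, and each of the 22 cells had reads for at least 11 of 12 astrocyte markers, which took 0.501% to 2.06% of the reads of a cell. Markers of microglia took up to 0.0116% of the reads of a cell, of endothelium up to 0.02%, of neurons up to 0.208% (J151_5), of the oligodendrocyte lineage up to 0.333% and of mural cells and fibroblasts up to 0.741% (J155_9). *Cldn5* and *Cdh5* (endothelium), *Slc17a7* (neurons), *Sox10* (oligodendrocyte lineage) and *Rgs5* (mural cells) had no read in any cell. Other markers of these lists were read. Each response type had reads for 4 to 5 of 8 endothelial, 5 to 9 of 10 neuronal and 7 to 8 of 10 oligodendrocyte lineage markers. Of the 8 mural and fibroblast markers each type had 4 to 6, and of the 11 of microglia 4 to 10. No label ties a cell to an animal or a culture, so each response type counts as 1 sample, cells are not replicates, and the types were compared without a test. Values below are normalized counts (reads divided by the size factor of the cell) unless reads or percent are named, and intervals cover counting error only, because no molecular identifiers are described and several reads may come from 1 molecule.

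Promoters of cell cycle genes often carry the cell cycle homology element (CHR), bound by DREAM, and CCAAT boxes, bound by NF-Y. RefSeq promoter windows (GRCm38.p6) of 300 bases, from 250 before to 50 after the start, were at hand for 34 of the 40 genes and not for *Ccna2*, *Cdc25c*, *Dlgap5*, *Tpx2*, *Cdca2* and *Aurkb*. On either strand, 24 of the 34 (70.6%) held TTTGAA or TTCGAA, against 21.7% of 27025 genes with a window, and 27 (79.4%) held CCAAT, against 41.1%. CCAAT stood at 2 or more places in 61.8% of the 34 genes and in 13.3% of all genes, and both motifs were found in 22 of the 34 (64.7%) against 9.65%. Within the 250 bases before the start alone, TTTGAA or TTCGAA was found in 35.3% of the 34 genes and in 19.6% of all genes. The lines below show, for genes described in detail further on, up to 150 bases before the start that lie outside annotated exons, written 5′ to 3′ on the strand of the gene, with the searched letters in capitals. TTTGAA is also capitalised where it reads TTCAAA on this strand, and CCAAT where it reads ATTGG.

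Cdk1 (chr10:69352939-69353088, minus strand): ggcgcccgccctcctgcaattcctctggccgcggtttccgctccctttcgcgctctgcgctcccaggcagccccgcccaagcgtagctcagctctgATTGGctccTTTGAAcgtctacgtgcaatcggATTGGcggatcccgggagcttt
Birc5 (chr11:117849087-117849236, plus strand): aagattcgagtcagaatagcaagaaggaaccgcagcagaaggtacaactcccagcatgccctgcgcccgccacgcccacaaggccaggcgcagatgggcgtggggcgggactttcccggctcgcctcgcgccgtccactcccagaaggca
Ube2c (chr2:164769748-164769897, plus strand): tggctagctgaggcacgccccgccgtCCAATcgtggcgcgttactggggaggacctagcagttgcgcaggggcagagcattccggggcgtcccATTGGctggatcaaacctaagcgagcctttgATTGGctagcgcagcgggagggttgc
Ckap2 (chr8:22185820-22185969, minus strand): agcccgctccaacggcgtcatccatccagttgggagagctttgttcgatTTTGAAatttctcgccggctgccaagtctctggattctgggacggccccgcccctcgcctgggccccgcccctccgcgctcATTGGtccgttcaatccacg
Mki67 (chr7:135716380-135716529, minus strand): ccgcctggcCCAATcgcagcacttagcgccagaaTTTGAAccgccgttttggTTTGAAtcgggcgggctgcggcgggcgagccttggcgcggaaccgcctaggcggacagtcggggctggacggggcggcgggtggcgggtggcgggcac
Top2a (chr11:99024190-99024339, minus strand): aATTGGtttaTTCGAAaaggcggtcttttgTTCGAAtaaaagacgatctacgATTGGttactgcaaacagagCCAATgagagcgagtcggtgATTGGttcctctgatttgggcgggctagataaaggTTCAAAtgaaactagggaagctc

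The stretch of *Birc5* held 0 of either motif, and that of *Top2a* held TTTGAA or TTCGAA at 3 places and CCAAT at 4. *Birc5*, *Mad2l1*, *Nuf2*, *Nusap1* and *Pttg1* had neither motif in their windows, and 2 of these 5 genes had their highest level in the S-type cell J150_3. The same cell was the highest for 19 of the 22 genes that held both motifs, for 5 of the 5 that held CCAAT alone, for 0 of the 2 that held TTTGAA or TTCGAA alone and for 29 of the whole set of 40, while 6.30% of the 12719 genes read in no fewer than 5 cells were highest there. A match of letters is a description and does not show a bound site.

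Reads of the mitosis genes were concentrated in few cells. They took 2.15% of the reads of J150_3 (exact 95% counting interval 2.14% to 2.15%) and 0.874% of the reads of J151_5 (0.869% to 0.879%), both S-type cells, against a median of 0.0271% over the 22 cells. J150_3 thus stood 79.2 times and J151_5 32.2 times above the median cell, and together they held 69.9% of the shares summed over cells. The T-type cell J165_23 followed with 0.429%, then the T-type cell J161_9 with 0.165%, the S-type cell J155_9 with 0.160%, the M-type cell J173_25 with 0.153% and the NR cells J186_5 with 0.0739% and J183_1 with 0.0701%. In each of the remaining cells the share was 0.0362% or less, down to 0.00221% in the T-type cell J163_18, which was also the shallowest library. Each response type therefore held a cell well above its median, and the ranges of the 4 types overlapped.

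The number of genes read gave a similar picture once low counts were set aside. The median cell had at least 1 read for 27.5 of the 40 genes (81.8% of the 12719 genes kept, those read in no fewer than 5 cells) and at least 100 reads, a threshold chosen after the data were seen, for 6.5 (50.6%). All 40 genes had 100 reads or more in J150_3, where 45.8% of all genes kept had as many, and 38 in J151_5 (48.2% of all genes). The counts were 29 in J165_23 (42.2%), 29 in J155_9 (58.6%), 26 in J173_25 (50.6%) and 31 in J183_1 (69.1%). In the other 16 cells 0 to 15 of the 40 genes reached 100 reads, with 23.5% to 65.3% of all genes. The 6 cells with most of the set at this level were 3 S-type cells and 1 cell of each other type. J183_1 differed from the others in level: 39 of the 40 genes had a read (94.8% of all genes) and 31 had at least 100, but 2 had at least 1000, and it was also the cell with the most genes read overall (13070).

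**Figure D1:**
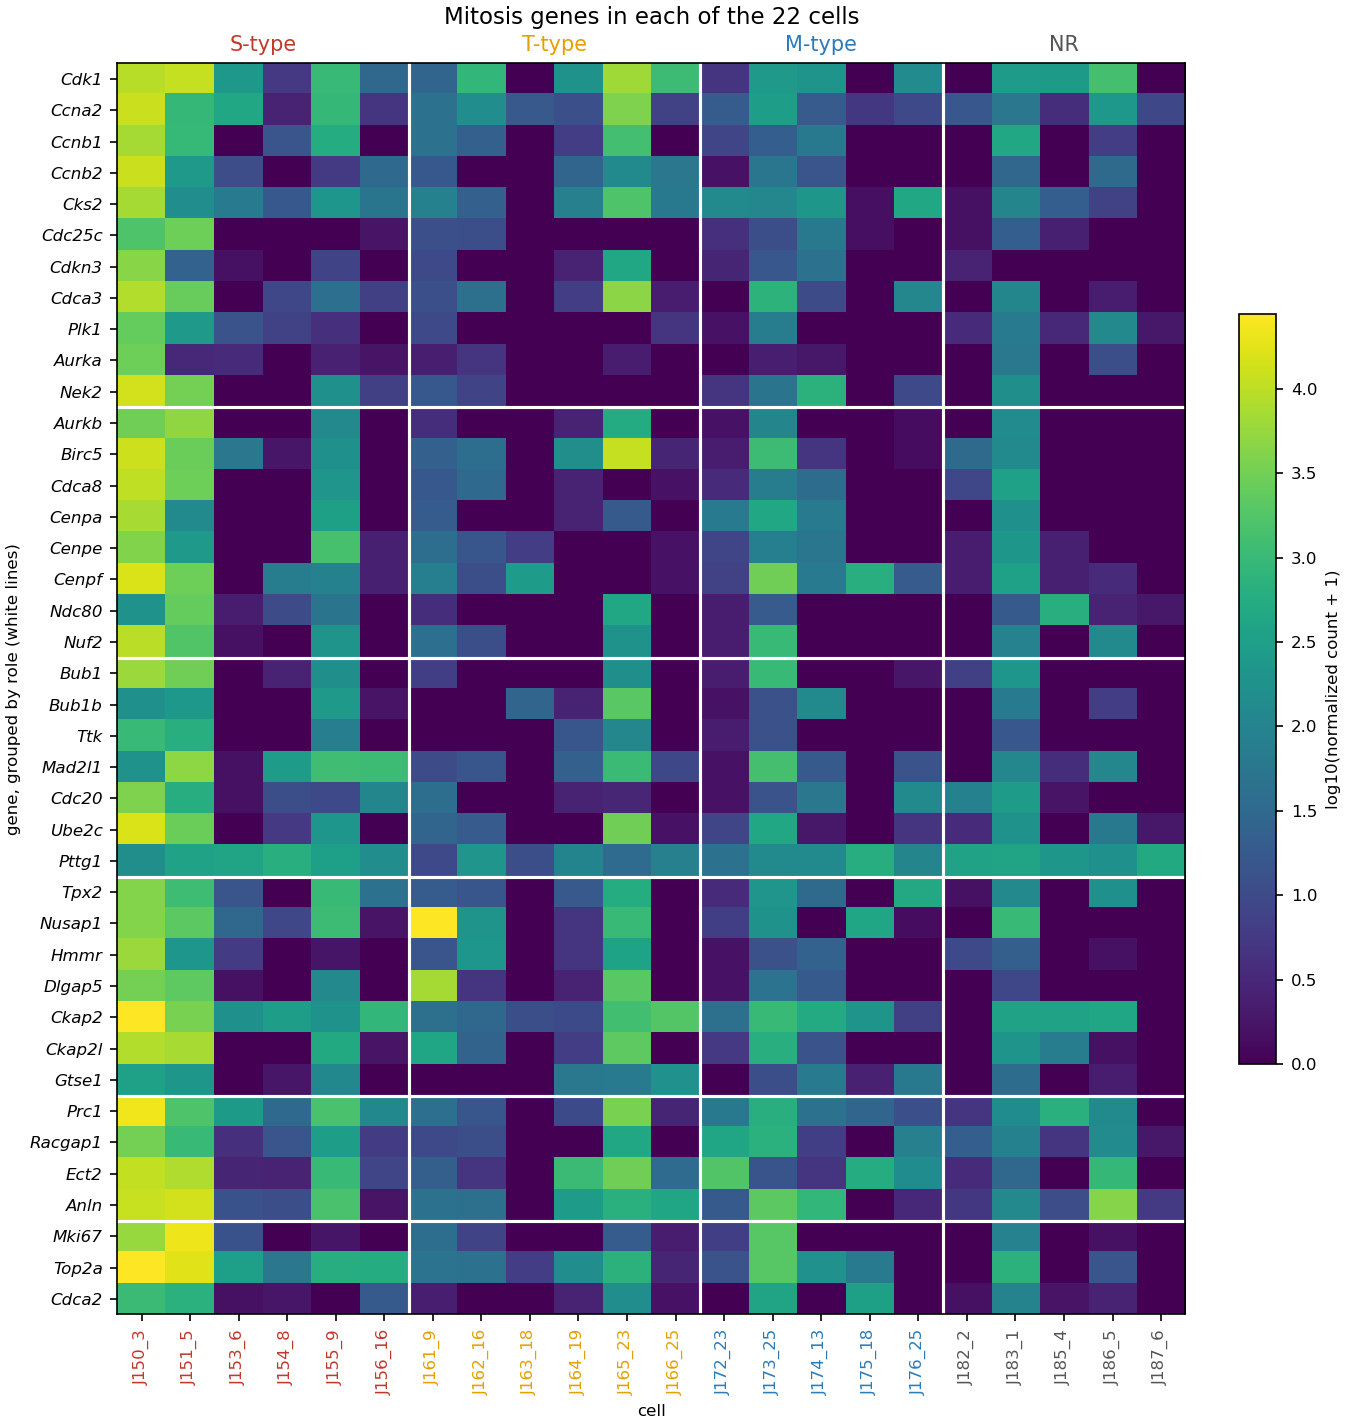
Level of the 40 mitosis genes (rows, grouped by role between white lines) in each of the 22 cells (columns, grouped by response type), as log10(normalized count + 1) in colour. J150_3 and J151_5 are bright over nearly all rows, J165_23, J155_9, J173_25 and J183_1 over most of them, and *Pttg1* is the row with the most even colour.

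Single genes were mostly high in 1 cell. J150_3 was the highest of the 22 cells for 29 of the 40 genes, against 6.30% of the 12719 genes, and J151_5 for 7, against 8.28%. For 29 of the 40 genes 1 cell held over 50% of the normalized counts summed over the 22 cells, which 19% of all genes showed. *Aurka*, a kinase of centrosome maturation, was the most concentrated, with 97.1% in J150_3. At the other end stood *Pttg1*, which encodes securin, with 12.5% in its highest cell. *Pttg1* and *Ccna2* were the 2 genes with a read in each of the 22 cells (5% of the set), while 28.9% of all genes tested had one.

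Gene positions below are from GENCODE vM21 (GRCm38). Values of M-type cells are given in the order J172_23, J173_25, J174_13, J175_18 and J176_25, and those of NR cells in the order J182_2, J183_1, J185_4, J186_5 and J187_6. Among the 11 genes of mitotic entry, *Cdk1* (chr10:69335146-69352938, minus strand), the kinase that starts mitosis, was read in 18 cells and reached 100 reads in 14. Its level was 4.38 to 11321 (median 637) in S-type cells and 0 to 6574 (median 541) in T-type cells. In the M-type cells it was 3.75, 251, 201, 0 and 138, and in the NR cells 0, 280.2, 266, 1379 and 0. The 3 highest levels came from J151_5, J150_3 (9435) and the T-type cell J165_23, and the remaining cells of all 4 types overlapped. *Ccna2* (chr3:36564865-36572150, minus strand) encodes cyclin A2, the partner of CDK2 and CDK1 in S phase and G2. It ranged from 1.75 to 12081 (median 693) in S-type cells and from 6.40 to 3799 (median 31.4) in T-type cells. The M-type cells had 18.8, 293, 17.8, 4.15 and 8.64 and the NR cells 15.2, 57.9, 2.88, 233 and 8.34. J150_3 and J165_23 were again the highest, and the types overlapped. *Ccnb1* (chr13:100778650-100786570, minus strand), cyclin B1, was at 0 in 9 cells. It ranged from 0 to 6939 (median 287) in S-type cells and from 0 to 1309 (median 13.6) in T-type cells. The M-type values were 7.51, 20.3, 60.9, 0 and 0, and the NR values 0, 436, 0, 5.38 and 0. NR cell J183_1 thus exceeded all M-type cells for this gene.

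The other 8 entry genes had their highest level in J150_3, except *Cdc25c*, the phosphatase that activates CDK1, which was highest in J151_5. J150_3 held 95% of the summed level of *Ccnb2*, cyclin B2, 88.8% of *Cdkn3*, a phosphatase that acts on CDK proteins, and 81.7% of *Plk1*, the polo kinase. It held 75.5% of *Nek2*, a centrosome kinase, 66.6% of *Cks2*, a small CDK-binding protein, and 50.1% of *Cdca3*, a factor that helps degrade WEE1. *Cks2* was the broadest of these, with reads in 20 cells and at least 100 reads in 10.

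The passenger complex, centromere and kinetochore group has 8 genes. *Birc5* (chr11:117849251-117855743, plus strand) encodes survivin, the subunit that places Aurora B at centromeres. Its level was 0 to 12883 (median 114) in S-type cells and 0 to 11154 (median 31.2) in T-type cells. The M-type cells had 1.25, 1109.8, 3.75, 0 and 0.432, and the NR cells 32.8, 131, 0, 0 and 0. J150_3 and J165_23 were within 1.16-fold of each other, and the next cell, J151_5, had 2737. *Cenpf* (chr1:189640606-189688086, minus strand), a large kinetochore protein of G2 and mitosis, was 0 to 15418 (median 80.2) in S-type cells and 0 to 278 (median 5.76) in T-type cells. Its values were 6.26, 3028, 68.9, 645 and 18.1 in M-type cells and 1.21, 348, 1.44, 2.39 and 0 in NR cells. The M-type cell J173_25 came second for this gene, slightly above J151_5, while J165_23 had no *Cenpf* read. *Aurkb*, the kinase of the passenger complex, was highest in J151_5, as was *Ndc80*, the microtubule-binding subunit of the outer kinetochore. *Cdca8* (borealin), *Cenpa* (the centromeric histone), *Cenpe* (a kinetochore motor) and *Nuf2* (the partner of NDC80) were highest in J150_3, with 65.9% to 85.2% of their summed level there. *Nuf2* and *Ndc80*, which form 1 complex, had different highest cells, and the NR cell J185_4 was second for *Ndc80*, with 869 reads, and had no *Nuf2* read.

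Of the 7 genes of the spindle checkpoint and anaphase, *Bub1* (chr2:127801122-127831865, minus strand), a checkpoint kinase, was read in 11 cells. It was 0 to 5931 (median 82.5) in S-type cells and 0 to 163.3 (median 0) in T-type cells. The M-type cells had 1.25, 1013, 0, 0 and 0.864 and the NR cells 6.07, 214, 0, 0 and 0. *Ube2c* (chr2:164769898-164778822, plus strand), the ubiquitin-conjugating enzyme of the APC/C, was 0 to 15374 (median 112) in S-type cells and 0 to 2995 (median 9.39) in T-type cells. The M-type values were 7.51, 461, 0.938, 0 and 3.89, and the NR values 2.43, 188, 0, 62.8 and 0.927. For *Bub1* and *Ube2c* alike the highest cells of the 4 types were J150_3, J165_23, J173_25 and J183_1. Among S-type cells J151_5 came next, with 2989 for *Bub1* and 2755 for *Ube2c*.

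In the rest of the checkpoint group the highest cell varied. *Cdc20*, the APC/C activator, and *Ttk*, the kinase MPS1, were highest in J150_3, with 74.0% and 53.7% of their summed level. *Bub1b*, which encodes BUBR1, was highest in the T-type cell J165_23, at 2067 (69.7% of the sum), against 256 in J155_9, 233 in J151_5 and 168 in J150_3. *Mad2l1*, the checkpoint protein MAD2, was 4885 in J151_5, 1339 in the M-type cell J173_25 and 1219.7 and 1134 in the S-type cells J155_9 and J156_16, but 189 in J150_3. *Pttg1* was 152 to 636 (median 344) in S-type cells, 8.45 to 203 (median 60.4) in T-type cells, 45.0, 134, 127, 582 and 103 in M-type cells and 358, 387, 221, 170.5 and 491 in NR cells. The ranges of S-type and NR cells thus lay close together and, except for their lowest cells, above the T-type cells, and the highest cell, J154_8, had 0.014% of its reads on the 40 genes. Securin RNA led the set in J154_8 and in the NR cells J187_6, with 96.7% of the reads of the set, and J182_2, with 64.1%.

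In the spindle microtubule group of 7 genes the highest level of *Nusap1* (chr2:119618298-119651244, plus strand), a protein that bundles spindle microtubules, came from a cell in which the set was otherwise low. *Nusap1* was 0.742 to 4157 (median 573) in S-type cells and 0 to 27815 (median 99.7) in T-type cells. M-type cells had 5.63, 186.3, 0, 424 and 0.432, and NR cells 0, 972, 0, 0 and 0. The highest value was that of the T-type cell J161_9, where *Nusap1* had 19761 reads, or 77.2% of all reads on the 40 genes. *Dlgap5*, a kinetochore fibre protein also known as HURP, was highest in the same cell, at 6922 against 3263 in J150_3. Apart from these and *Ckap2l*, with 305 reads, no gene of the set reached 100 reads in J161_9, and 34 had 1 to 99. *Ckap2* (chr8:22168160-22185819, minus strand), a microtubule-associated protein, had reads in 20 cells. It was 166.3 to 27168 (median 598) in S-type cells and 9.12 to 1799 (median 35.6) in T-type cells. M-type cells had 41.9, 1034, 524, 197 and 6.05, and NR cells 0, 364, 365, 420.4 and 0. The T-type cell J166_25 had 2809 *Ckap2* reads and no read of 19 other genes of the set, while 80.2% of all genes kept had a read there. *Tpx2*, the activator of Aurora A, *Hmmr*, a spindle pole protein, *Ckap2l*, a relative of *Ckap2*, and *Gtse1*, a protein of G2 and S phase, were highest in J150_3. Their share of the summed level there ran from 29.3% for *Gtse1* to 87.1% for *Hmmr*.

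Of the 4 genes of the central spindle and cytokinesis, 3 were highest in J150_3, with 71.4% of the summed level of *Prc1*, 50% of *Racgap1* and 39.0% of *Ect2*. *Prc1* (chr7:80294450-80316259, plus strand), which bundles antiparallel microtubules of the midzone, was 31.5 to 22078 (median 882) in S-type cells and 0 to 3499 (median 11.8) in T-type cells. M-type cells had 62.6, 644, 46.4, 27.0 and 11.2 and NR cells 3.64, 145, 668, 128 and 0. *Anln* (chr9:22332012-22389188, minus strand), the actin-binding protein of the contractile ring, was 0.742 to 14072 (median 756) in S-type cells and 0 to 662 (median 160.9) in T-type cells. Its values were 16.9, 2139, 867, 0 and 2.16 in M-type cells and 4.25, 124, 10.1, 4275 and 4.64 in NR cells. The NR cell J186_5 was next after J151_5 and J150_3 for *Anln*, whose 7148 reads were 51.4% of the reads of the set in that cell. *Ect2*, the exchange factor that activates RhoA, was 10816 in J150_3 and 8383 in J151_5, and it led the set in the M-type cell J172_23 with 2752 reads and in the T-type cell J164_19 with 582. *Racgap1*, the centralspindlin subunit that recruits ECT2, was 3271 in J150_3 and 1011 in J151_5.

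The last group holds 3 proteins of mitotic chromosomes. *Mki67* (chr7:135689784-135716361, minus strand), the chromosome surface protein detected as Ki-67, was 0 to 21408 (median 6.48) in S-type cells and 0 to 39.4 (median 4.27) in T-type cells. M-type cells had 5.63, 1965, 0, 0 and 0, and NR cells 0, 94.2, 0, 0.598 and 0. It had at least 100 reads in 4 cells, J151_5, J150_3, J173_25 and J183_1. J165_23 and J155_9, each among the 5 cells with the highest share of the set, had 29 and 1 *Mki67* reads. *Top2a* (chr11:98992943-99024189, minus strand), DNA topoisomerase II alpha, was 57.8 to 27257 (median 569.6) in S-type cells and 1.92 to 728 (median 48.2) in T-type cells. M-type cells had 12.5, 1949, 178, 70.0 and 0, and NR cells 0, 727, 0, 13.8 and 0. *Cdca2*, which recruits protein phosphatase 1 to chromosomes, was highest in J150_3 and J151_5, followed by J173_25 and the M-type cell J175_18.

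J150_3 and J151_5 did not express the set in the same proportions. Of the 40 genes 22 were at least 2-fold higher in J150_3 (28.3% of all genes tested) and 4 at least 2-fold lower (35.4%), with a median log2 ratio of 1.77. All 40 had reads in both cells. In the shares over all genes, a gene without a read in J151_5 could not count as higher, while a gene read in J151_5 alone counted as lower. The 2 shares are therefore not like measures, and 28.3% can only understate the higher genes. The entry genes had the highest median of the 6 roles, 3.31, with 9 of 11 higher. The chromosome proteins had the lowest, 0.61, with *Mki67* among them in the other direction (-1.91). *Aurka* had 3229 reads in J150_3 and 2 in J151_5, a log2 ratio of 10.37 (95% counting interval 8.51 to 13.42). *Cdkn3*, *Cenpa*, *Ccnb2* and *Cks2* followed with 7.55, 5.73, 5.65 and 5.51. *Cdk1* lay at -0.26 (-0.30 to -0.22), while *Ccnb1* was at 2.86 (2.76 to 2.96). The 4 genes that were lower in J150_3 were *Mad2l1* (-4.69), *Ndc80* (-3.70), *Mki67* (-1.91) and *Pttg1* (-1.25). Per kilobase of exon (all annotated exons of a gene joined), the highest normalized counts in J150_3 were those of *Cks2* (10023), *Ckap2* (8450), *Ccnb2* (8033), *Ube2c* (5913) and *Birc5* (3787). In J151_5 they were those of *Ckap2l* (2348), *Cdk1* (2295), *Mki67* (2128), *Top2a* (1965) and *Aurkb* (1693), so no gene was among the first 5 in both. Libraries from amplified antisense RNA favour the 3′ ends of transcripts, and a level per kilobase of exon understates long genes there.

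**Figure D2:**
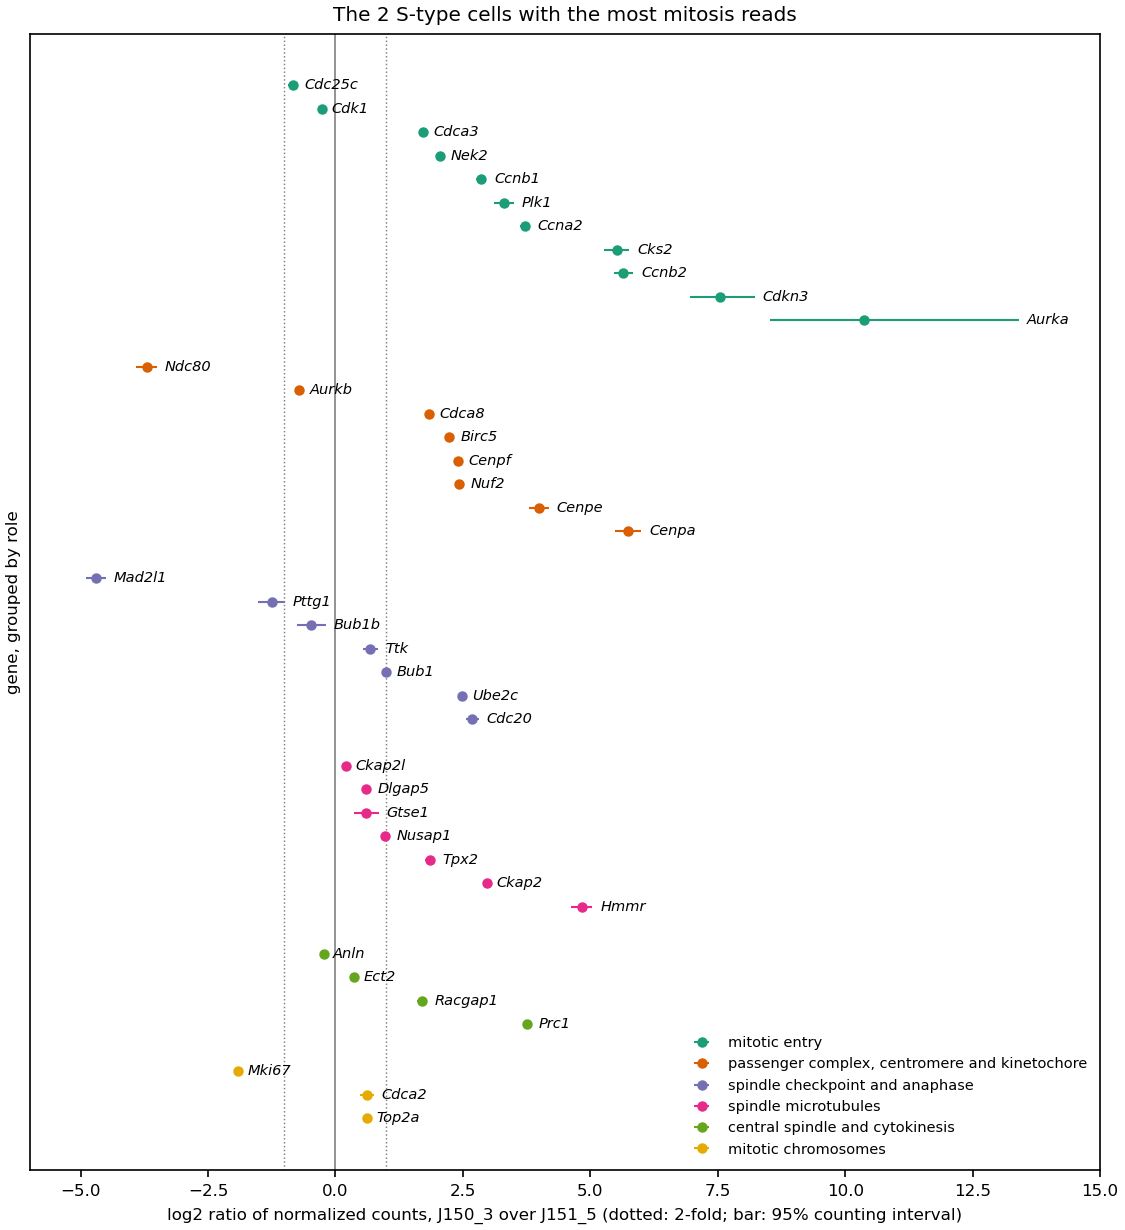
Log2 ratio of normalized counts of each of the 40 genes in J150_3 over J151_5 (horizontal axis), grouped by role in colour, with dotted lines at 2-fold and bars for the 95% counting interval. Most entry and kinetochore genes lie to the right of 2-fold, *Mad2l1* and *Ndc80* lie farthest left at -4.69 and -3.70, and *Aurka* lies farthest right at 10.37.

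S phase genes were read beside the set as a list of 43 genes, with the highest mean levels in *Pcna*, the replication clamp, *Mcm4*, a subunit of the replicative helicase, and *Rrm2*, a subunit of ribonucleotide reductase. They took 1.30% of the reads of J151_5, 1.04% of J165_23 and 0.587% of J150_3, and 0.295% or less in the remaining cells. The reads of the mitosis genes were 3.66 times those of the S phase genes in J150_3, 0.672 times in J151_5 and 0.412 times in J165_23. J150_3 was thus the cell with the most mitosis reads and came after J151_5 and J165_23 in S phase reads. In 20 of the 22 cells S phase reads exceeded mitosis reads, and the exceptions were J150_3 and J161_9 (1.02 times). In J161_9 *Nusap1* alone held 77.2% of the mitosis reads. In J165_23 *Birc5* had 17211 reads and *Cdk1* 10144, while *Nek2*, *Plk1*, *Cdc25c*, *Cdca8*, *Cenpe* and *Cenpf* had none. A count of 0 in 1 cell does not show that the transcript was absent. Of all genes kept, 67.3% had a read in J165_23. In the 3 cells the neuronal markers took 0.0626% (J150_3), 0.208% (J151_5) and 0.00381% (J165_23) of the reads and the mural and fibroblast markers 0.179%, 0.0892% and 0.424%, and their part in these results was not tested.

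**Figure D3:**
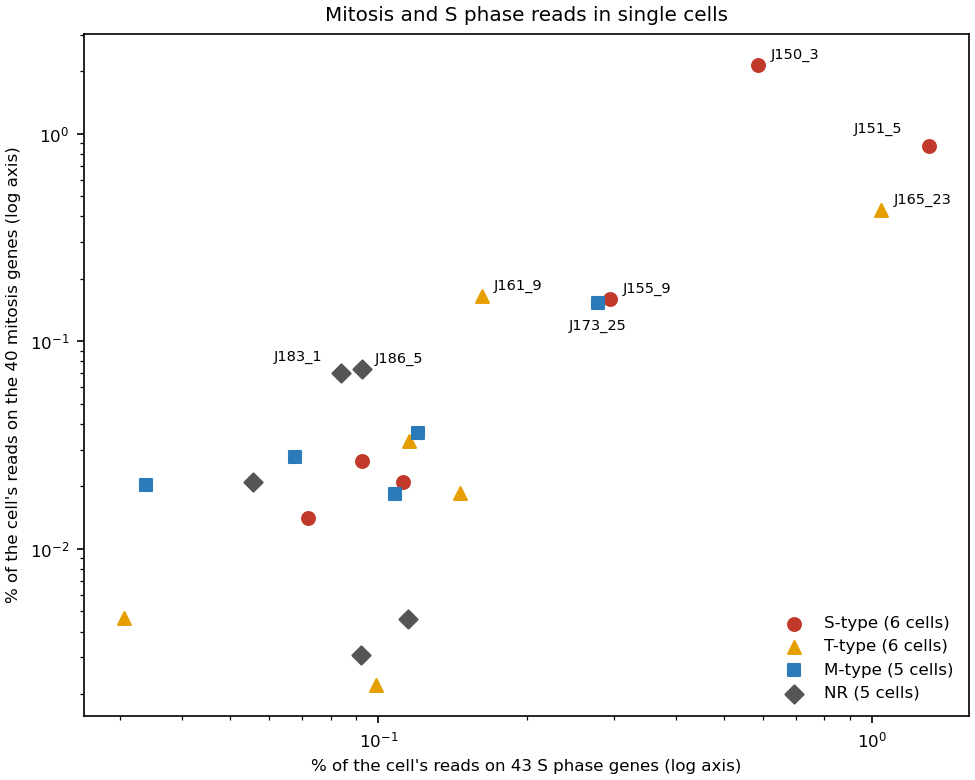
Percent of the reads of a cell on the 40 mitosis genes (vertical, log axis) against percent on 43 S phase genes (horizontal, log axis) for each of the 22 cells, with colour and shape for the response type. J150_3 lies highest at 2.15%, J151_5 and J165_23 lie farthest right at 1.30% and 1.04%, and the cells other than these 3 lie at 0.165% or less on the vertical axis.

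The S-type cells were compared with the NR cells by the ratio of mean normalized counts. Of the 40 genes 39 were at least 2-fold higher in S-type cells, where 25.0% of all 12719 genes were, and 0 were at least 2-fold lower (22.3%). The median log2 ratio was 5.09, against 0.03 over all genes tested. *Pttg1* was the exception, at 0.05 (95% counting interval -0.03 to 0.14). *Mki67* had a log2 ratio of 7.90 (7.68 to 8.13), *Top2a* 5.71 (5.63 to 5.79), *Cdk1* 3.26 (3.20 to 3.31) and *Ccnb1* 4.00 (3.89 to 4.11). The other genes described by cell lay between 2.38 for *Anln* and 6.33 for *Birc5*. Over the 40 genes, the lowest ratios after *Pttg1* were 1.84 for *Ndc80*, that of *Anln* and 2.67 for *Nusap1*, and the highest were 11.01 for *Cdkn3*, with 3 reads over the NR cells (9.46 to 13.29), and 9.19 for *Dlgap5*. The S-type cells all lay above the NR cells, or all below them, for 0 of the 40 genes, against 0.204% of all genes in either direction.

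Most of this difference rested on 2 of the 6 S-type cells. Without J150_3 and J151_5 the median log2 ratio was 0.46, with 14 of the 40 genes at least 2-fold higher and 9 at least 2-fold lower. Over all 12719 genes the median was then -0.13, with 2566 genes at least 2-fold higher and 3205 at least 2-fold lower. *Mki67* then lay at -2.55, *Anln* at -1.21, *Cenpf* at -0.80, *Cdk1* at -0.23 and *Bub1* at -0.093. *Dlgap5* (4.30), *Mad2l1* (3.84), *Cenpe* (2.96), *Ttk* (2.71) and *Ccna2* (2.46) remained at least 2-fold higher in the other 4 S-type cells, of which J155_9 had the highest level of *Dlgap5*, *Mad2l1*, *Cenpe*, *Ttk* and *Ccna2*. Without J150_3 alone the median was 2.92, and without the NR cell J183_1 it was 8.15, with *Mki67* at 14.88, *Top2a* at 11.14 and *Ccnb1* at 10.03. The NR reads left for these genes were then all in J186_5, with 1 for *Mki67*, 23 for *Top2a* and 9 for *Ccnb1*. The ratio of *Mki67* thus rests on 1 NR read, and the 3 reads that stand in for a type without a read were not applied to it. Without the NR cell J186_5 *Cdk1* lay at 4.75 and *Anln* at 7.01, and without J185_4 *Ndc80* lay at 6.55. Without the 2 cells the spindle microtubule genes had the highest median of the 6 roles (1.20, against 4.55 with them) and the chromosome proteins the lowest (-2.12, against 5.71).

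**Figure D4:**
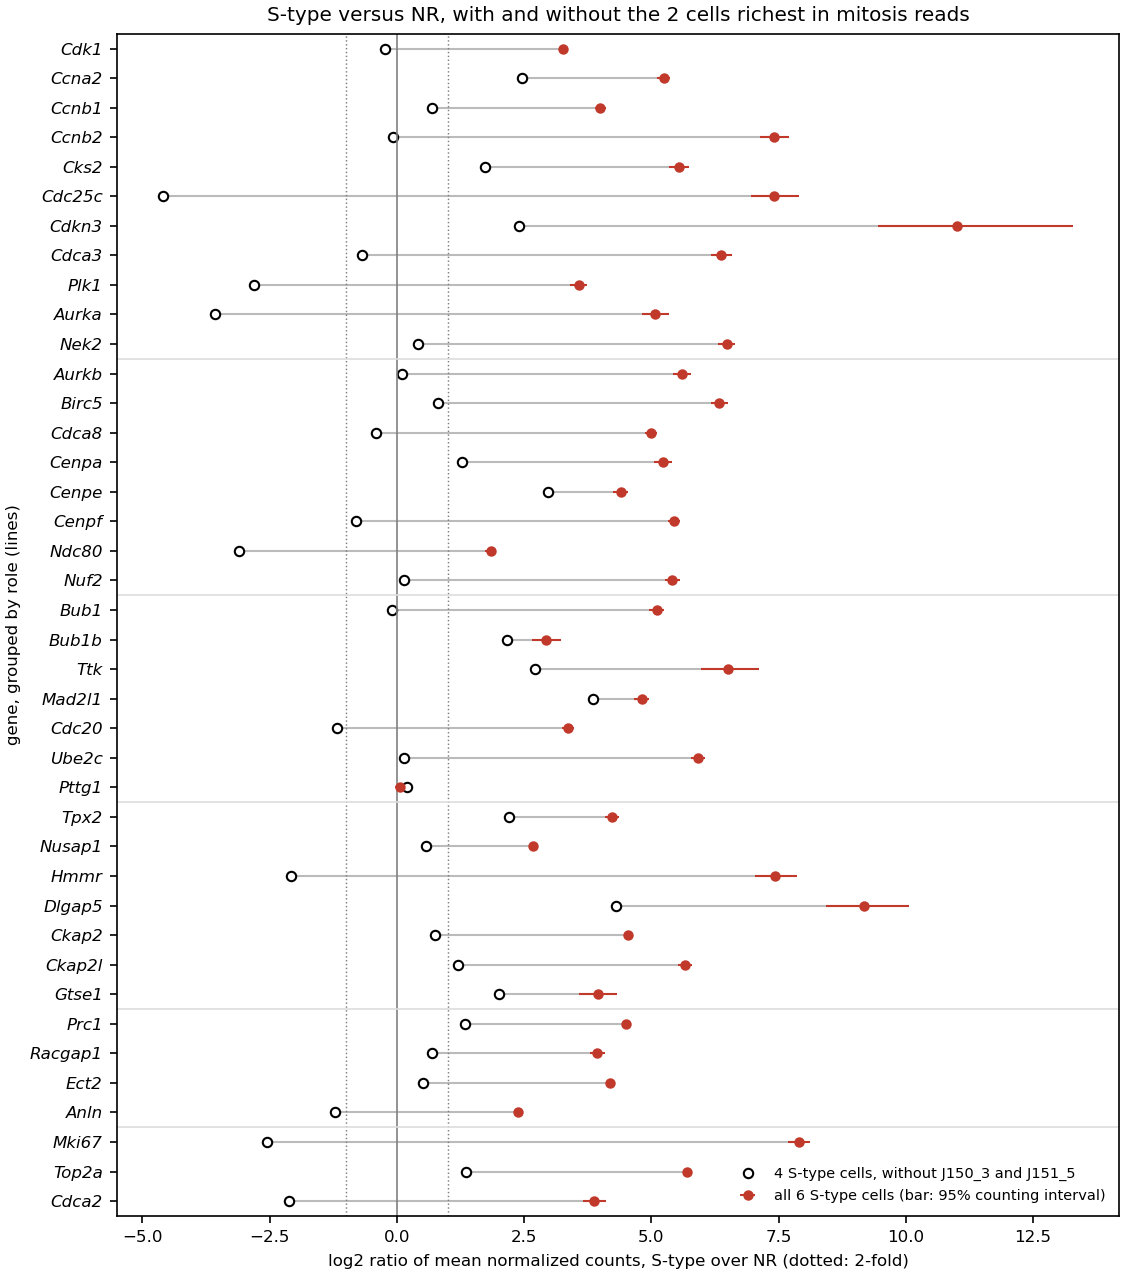
Log2 ratio of mean normalized counts, S-type over NR (horizontal axis), for each of the 40 genes, with all 6 S-type cells (filled, with the 95% counting interval) and with the 4 cells left without J150_3 and J151_5 (open). Filled points lie right of 2-fold for 39 genes, and open points lie on both sides of 0, with a median of 0.46 (-0.13 over all genes tested).

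In T-type cells 21 genes were at least 2-fold higher than in NR cells (27.9% of all genes) and 9 at least 2-fold lower (32.2%), with a median log2 ratio of 1.29. Without J165_23 the median was -1.74, with 5 genes higher and 22 lower, and without J183_1 it was 3.76, with 32 higher and 6 lower. In M-type cells 20 genes were higher (19.6%) and 6 lower (27.9%), with a median of 1.097. Without J173_25 the median was -1.36, with 12 higher and 21 lower, and without J183_1 it was 3.36, with 29 higher and 4 lower. In neither comparison did the cells of the 2 types lie apart for any of the 40 genes, as 0.189% of all genes did with T-type cells higher and 0.802% with T-type cells lower, and 0.275% and 0.322% with M-type cells higher and lower. These comparisons share the NR cells.

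Between T-type and S-type cells 36 genes were at least 2-fold lower in T-type cells (32.0% of all genes) and 2 at least 2-fold higher (25.3%), with a median log2 ratio of -3.35. The 2 higher genes were *Nusap1* and *Bub1b*, whose highest cells were J161_9 and J165_23. Without J150_3 and J151_5 the median was 0.73, with 18 of the 40 genes higher and 10 lower in T-type cells. Over all 12719 genes the median was then 0.10, with 3708 genes higher and 3636 lower. The 2 cells left out were the S-type cells with the highest share of the set, while the T-type cells J165_23 and J161_9 stayed in. Without J150_3 alone the median was -1.98, and 23 of the 40 genes were lower and 7 higher. Without the T-type cell J165_23 alone the median was -6.75, with 38 of the 40 genes lower. The cells of the 2 types lay apart for 0 of the 40 genes, against 0.126% of all genes with T-type cells higher and 0.645% with T-type cells lower.

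Other lists of cell cycle genes, chosen as the set was with earlier results known, had lower medians than the set in S-type versus NR with all cells, but not in each other comparison. In T-type versus NR the median was 1.68 for S phase genes and 1.40 for DREAM, RB and E2F genes, against 1.29 for the set. The genes said to lead a list are its 3 of highest mean level. Of 58 further mitosis genes, led by *Tubb4b*, a tubulin, *Bub3*, a checkpoint protein, and *Mis12*, a kinetochore protein, 49 were at least 2-fold higher and 2 lower in S-type than in NR cells, with a median log2 ratio of 3.98 (0.73 without J150_3 and J151_5, where the set had 0.46). J150_3 was the highest cell for 30 of them. The 43 S phase genes had a median of 3.76 with 37 higher and 2 lower, and 1.87 without the 2 cells, with 26 higher. Condensin and cohesin (18 genes, led by *Smc3* and *Rad21* of cohesin and *Smc4* of condensin) had a median of 1.58 and 12 higher, and 0.30 without the 2 cells, with 5 higher and 2 lower. The 15 APC/C subunits, led by *Anapc16*, *Anapc4* and *Cdc27*, had a median of 0.14, with 3 higher and 3 lower, and -0.44 without the 2 cells. Their activator *Cdc20* and their enzyme *Ube2c* had log2 ratios of 3.36 and 5.91 with all cells. DREAM, RB and E2F genes (18, led by *Rbbp4*, *Rb1* and *Tfdp2*) had a median of 1.06, with 9 higher and 1 lower, and -0.16 without the 2 cells, with 5 higher and 5 lower. CDK inhibitors and G1 cyclins (14, led by *Ccnd2*, *Ccnd1* and *Cdkn2b*) had 0.77, with 7 higher and 3 lower, and 0.03 without them. With all cells the further mitosis genes lay closest to the median of the 40 genes and the APC/C subunits closest to that of all genes tested.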

How the data were processed

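The authors amplified antisense RNA of single cells, made stranded libraries, trimmed reads, aligned them with STAR to GRCm38 and counted exonic reads per gene with VERSE; the submitters' processing notes name HTSeq. Versions and the strand setting are not given in the sources used here, so reads of overlapping genes may be shared. The deposited values are raw counts of 22 cells. Size factors were medians of ratios over the 3670 genes that each cell had read. The filter asked for reads in 5 or more cells and kept 12719 genes, all 40 mitosis genes among them. Types were compared by the ratio of mean normalized counts, with a call at 2-fold and no test; where a type had no read, 3 reads summed over its cells stood in, and genes with up to 3 reads in both types got no ratio. When cells were left out, the size factors of the 22 cells were kept. Intervals are exact binomial at 95%. The analysis used Python 3.11.15, NumPy 2.4.6, pandas 2.3.3, SciPy 1.17.1, matplotlib 3.10.9 and edgeR 4.0.16 in R 4.3.3 (TMM factors as an alternative). Ratios were checked on simulated Poisson counts with 200 genes changed by set folds. Apart from these folds and depth, all cells shared 1 mean per gene there. The check could therefore not test how much single cells weigh on a ratio. The members, lists and motifs were chosen with earlier results of these data known. Genes described with values in each cell or type by rule were the 2 with the highest mean level in each role and *Mki67*, *Top2a*, *Cdk1* and *Ccnb1*. *Pttg1* was described in the same way outside this rule, and it and others were picked after their values were seen. Exon lengths are from GENCODE vM21 (GRCm38). Alternatives were another normalization, level, depth, floor or filter and leaving out cells.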

Additional observations from a re-analysis of the deposited data

Results flagged for a closer look

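Cells that stood apart from the others of their type were looked for with Dixon's test in 40 groups (10 measures in 4 types), and 15 were found. Chance flags about 1 in 20 only where values are normally distributed and groups are independent. Shares of reads are skewed over cells and the whole set holds the genes of its roles. The 15 therefore cannot be set against that rate. In S-type cells J150_3 stood apart, with 0.570% of its reads on mitotic entry genes (next cell 0.147%), 0.439% on passenger complex, centromere and kinetochore genes (0.118%) and 0.377% on spindle microtubule genes (0.108%). In T-type cells J165_23 stood apart for 5 roles, with 0.150% on mitotic entry (0.0108%), 0.0989% on the passenger complex group (0.00177%), 0.0515% on the spindle checkpoint and anaphase (0.00117%), 0.0611% on the central spindle and cytokinesis (0.0112%) and 0.00717% on mitotic chromosomes (0.00125%). In M-type cells J173_25 stood apart with 0.153% on the whole set (0.0362%), 0.0440% on the passenger complex group (0.0063%), 0.0224% on the checkpoint group (0.00568%) and 0.0323% on mitotic chromosomes (0.00401%). In NR cells J183_1 stood apart with 0.0125% on the checkpoint group (0.00376%) and 0.00911% on mitotic chromosomes (0.000143%), and J186_5 with 0.0482% on the central spindle and cytokinesis (0.0063%). Each was the highest cell of its type for that measure. The cause was not tested.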

How the results depend on the processing

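Of 118 values under other settings 103 moved by less than their spread or, for counts, by less than 1.5-fold. The medians and 2-fold counts of the 4 comparisons stayed in that range with TMM factors, CPM of pooled reads or a pseudocount of 1. They also did so after thinning each cell to 2937786 reads. Using no filter or a mean level of at least 10 could not move them. Every gene of the set passed the filter, and the lowest mean level in the set was 53.5 (*Gtse1*). Values from these unfiltered and mean-level runs are counted among the 103 and are no evidence of stability. With the mean of log2 values the S-type versus NR median was 3.29 and 0 genes in place of 2 were higher in T-type than in S-type cells, and under TMM factors or thinning 1 gene in place of 0 lay apart in T-type versus NR and in T-type versus S-type. Over these settings the T-type versus NR median was 0.80 to 1.65, the M-type versus NR median 0.60 to 1.23 and the T-type versus S-type median -3.35 to -2.54. Without J150_3 and J151_5 together the S-type versus NR median was 0.46 (14 higher, 9 lower), with *Cdk1* at -0.23, *Cenpf* at -0.80, *Bub1* at -0.093, *Anln* at -1.21 and *Mki67* at -2.55, and the T-type versus S-type median was 0.73 (18 higher, 10 lower). Leaving out 1 cell at a time gave S-type versus NR medians of 2.92 to 8.15, with 36 to 39 higher, 0 to 1 lower and 0 to 2 apart, and T-type versus NR medians of -1.74 to 3.76, with 5 to 32 higher, 6 to 22 lower and 0 to 1 apart. It gave M-type versus NR medians of -1.36 to 3.36, with 12 to 29 higher, 4 to 21 lower and 0 to 2 apart, and T-type versus S-type medians of -6.75 to -1.98, with 1 to 7 higher, 23 to 38 lower and 0 to 1 apart. The part of the set's summed share that J150_3 held was 49.7%, and 50.1% by normalized counts. The median cell had 17 genes at 5 reads or more and 6.5 at 100 (added after the data were seen) against 27.5 at 1 read and 20.5 after thinning. J150_3 was the highest cell for 29 genes under each normalization and after thinning. TTTGAA or TTCGAA stood in 35.3% of promoters over the 250 bases before the start alone, against 70.6% over the whole window. The cause of these differences was not tested. No paired analysis was possible because a replicate number only names a cell. With 5 or 6 cells a type, leaving out 1 cell turned the sign of the median in T-type versus NR (J165_23) and M-type versus NR (J173_25), and it turned neither of the other 2.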
